A study of Mus musculus with 16 samples.

Results

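The genes described here are 9 transcription factors of the pancreatic duct and the embryonic foregut, Sox9, Pdx1, Gata6, Foxa2, Hnf4a, Onecut2, Elf3, Klf5 and Foxa1. They were picked by gene symbol, out of 18635 genes listed in at least 1 of 4 count tables from mouse samples labelled as tumours. All 9 were listed in both tables of the pancreatic line KPC, and 7 were listed in each table of the ovarian line ID8, where Hnf4a and Pdx1 had no row and were taken as 0.

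The study knocked out Trp53bp1, which encodes 53BP1, a protein of double-strand break repair, in both lines. The labels call every sample a tumour raised from 1 of these lines in syngeneic mice, while the RNA protocol speaks of cells. The groups were KPC Trp53bp1 KO (5 samples), KPC WT (5 samples), ID8 Trp53bp1 KO (3 samples) and ID8 WT (3 samples), where WT refers to Trp53bp1. KPC lines come from pancreatic tumours of mice that carry mutant Trp53, and ID8 comes from mouse ovarian surface epithelium. The alleles and Cre driver of this KPC line, the way the gene was knocked out, the number of knockout clones and the age and strain of the hosts are not given in the sources used here. Each genotype of a line may therefore be a single derived line, and a difference between derived lines and an effect of the knockout cannot be told apart. The samples are called biological replicates, without a statement that each came from its own animal, so p-values measure the spread between these samples.

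Foxa1 and Foxa2 are forkhead proteins that open closed chromatin in the endoderm, and Gata6 is a zinc finger protein that acts beside them when the pancreas forms. Pdx1, Sox9, Hnf4a and the Onecut proteins bind one another's genes and keep the identity of pancreatic progenitors and duct cells. Elf3 and Klf5 are factors of differentiated epithelia, and in human pancreatic cancer high GATA6, HNF4A and FOXA2 go with the gland-forming classical subtype.

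Promoter sequences are shown for 2 of the genes searched, Foxa2 and Hnf4a. Foxa2 differed in level between the KPC genotypes, and Hnf4a was the more abundant of the 2 factors not listed in ID8. RefSeq windows of 300 bases (250 before to 50 after a gene's start, GRCm38.p6) were searched for 5 of the 9 genes, in 8 windows. Gata6 and Onecut2 were left out of this search. Capitals mark short letter strings known from the binding sites of these factors. They were searched on both strands, and the percentage after each string is its share of 32851 RefSeq windows of the same length. For FOXA proteins TGTTTAC (3.65%) was searched, with TGTTTGC (5.07%) as its variant. For GATA proteins it was AGATAA (11.2%), with TGATAA (9.05%) as its variant. For the Onecut proteins ATTGATT (2.86%) was searched beside the shorter ATCGAT (0.925%), and for PDX1 it was CTAATTA (2.0%). For SOX proteins ACAATGG (3.66%) was searched, and as its variant ACAAAGG (5.88%). For ELF proteins it was AGGAAGT (9.35%) and for KLF proteins CCACACCC (3.56%). For HNF4 the strings CAAAGTCC (1.42%) or CAAAGTTC (1.04%) were searched. The first Foxa2 window held the first Onecut string, the second held the ELF string and the third held the first GATA string. The first Hnf4a window held the first Onecut string on its reverse strand beside the first GATA string, and the second window held the PDX1 string on its reverse strand. The 2 strings in the first Hnf4a window do not overlap and are parted by a single base.
Foxa2, chr2:148046920-148047219, minus strand: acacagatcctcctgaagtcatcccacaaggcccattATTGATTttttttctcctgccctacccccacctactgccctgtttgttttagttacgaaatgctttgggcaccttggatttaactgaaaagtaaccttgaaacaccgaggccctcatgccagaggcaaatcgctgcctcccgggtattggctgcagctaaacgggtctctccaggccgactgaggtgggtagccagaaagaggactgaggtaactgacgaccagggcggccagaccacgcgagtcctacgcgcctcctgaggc
Foxa2, chr2:148045899-148046198, minus strand: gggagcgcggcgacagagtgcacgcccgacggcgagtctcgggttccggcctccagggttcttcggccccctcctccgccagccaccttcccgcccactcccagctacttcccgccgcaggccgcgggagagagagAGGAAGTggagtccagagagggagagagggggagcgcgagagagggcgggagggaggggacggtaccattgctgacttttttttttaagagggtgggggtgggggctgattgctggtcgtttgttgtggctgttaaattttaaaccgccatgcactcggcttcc
Foxa2, chr2:148045415-148045714, minus strand: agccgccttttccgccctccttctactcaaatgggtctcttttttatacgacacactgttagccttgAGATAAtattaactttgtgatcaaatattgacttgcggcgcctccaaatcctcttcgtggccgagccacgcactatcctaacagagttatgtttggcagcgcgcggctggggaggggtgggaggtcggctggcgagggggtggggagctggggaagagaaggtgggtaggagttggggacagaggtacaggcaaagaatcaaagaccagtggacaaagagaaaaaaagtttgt
Hnf4a, chr2:163506607-163506906, plus strand: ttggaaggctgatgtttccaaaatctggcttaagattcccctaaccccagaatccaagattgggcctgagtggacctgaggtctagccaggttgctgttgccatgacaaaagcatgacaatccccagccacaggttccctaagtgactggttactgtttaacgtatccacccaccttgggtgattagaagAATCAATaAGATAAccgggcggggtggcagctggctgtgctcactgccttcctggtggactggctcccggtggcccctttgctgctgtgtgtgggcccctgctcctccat
Hnf4a, chr2:163546905-163547204, plus strand: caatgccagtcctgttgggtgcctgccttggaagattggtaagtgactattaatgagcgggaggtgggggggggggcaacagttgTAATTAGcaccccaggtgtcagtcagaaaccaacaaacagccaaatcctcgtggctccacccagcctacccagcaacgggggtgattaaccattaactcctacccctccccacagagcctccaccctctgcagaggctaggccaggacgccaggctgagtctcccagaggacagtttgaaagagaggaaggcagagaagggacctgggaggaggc
The Foxa1 window held the first FOXA string on its reverse strand, and the Pdx1 and Elf3 windows held none of the strings. A match describes letters in these windows and not a bound site.

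Libraries held 17902867 to 19727536 counts. Levels are given in CPM, counts relative to library size, with TMM factors over all 16 libraries that even out library composition, so that 3 counts per library equal 0.158 CPM in ID8 KO and 0.162 CPM in ID8 WT on average. Trp53bp1 had 28.0, 36.5, 37.6, 34.6 and 32.3 CPM in KPC KO samples, against 49.5, 48.4, 52.4, 47.0 and 54.1 CPM in KPC WT samples, a log2 fold change of -0.59 (SE 0.0898, edgeR adjusted p = 0.004). In ID8 it had 18.3, 19.0 and 19.3 CPM in KO samples, against 46.2, 50.6 and 45.5 CPM in WT samples, a log2 fold change of -1.33 (SE 0.0667, edgeR adjusted p = 1.15e-10). In both lines every KO library lay below every WT library. Summed over each list of markers, leukocytes gave 1960 to 3110 CPM in KPC KO, 1130 to 2600 in KPC WT, 0.0525 to 0.316 in ID8 KO and 0.054 to 0.162 in ID8 WT libraries, with 4 of 6 markers at 0 in every ID8 library. Host cell transcripts were thus abundant in the KPC libraries and nearly absent from the ID8 libraries, although both are called tumours. Whether the ID8 libraries come from tumours or from cultured cells was not tested, so in every comparison of KPC with ID8 a difference between the lines and one between tumour and culture cannot be told apart. Endothelial markers gave at least 273 CPM in KPC KO, at least 231 in KPC WT, at most 1.94 in ID8 KO and at most 2.75 in ID8 WT libraries. Fibroblast markers gave 5960 to 10200 CPM in KPC KO, 4590 to 8520 in KPC WT, 81.8 to 100 in ID8 KO and 339 to 411 in ID8 WT libraries. Adipocyte markers gave 32.3 to 80.7 CPM in KPC KO and 71.2 to 291 in KPC WT libraries, and at most 0.0525 in ID8 libraries. Muscle markers reached 1.37 CPM in ID8 libraries and are given for KPC below. Enterocyte markers gave 55.0 to 85.3 CPM in KPC KO and 49.5 to 78.9 in KPC WT libraries, and at most 0.433 in ID8 libraries. Most of this was Vil1, which averaged 66.9 CPM in KPC KO and 59.5 in KPC WT samples. None of Fabp2, Alpi and Apoa4 averaged more than 3.45 CPM in a KPC group. Markers of duct and simple epithelium gave 9710 to 11800 CPM in KPC KO, 5920 to 6940 in KPC WT, 2870 to 2960 in ID8 KO and 3720 to 4050 in ID8 WT libraries. Islet hormone genes summed to at most 0.0512 CPM, hepatocyte genes to at most 5.13 CPM, and acinar genes to 3.84 to 4.83 CPM in KPC KO and 8.05 to 21.5 CPM in KPC WT, nearly all of it Cela1. Markers of ovarian surface epithelium and mesothelium gave 5990 to 7540 CPM in KPC KO, 4210 to 4660 in KPC WT, 6220 to 6520 in ID8 KO and 5300 to 5770 in ID8 WT libraries. Wt1, one of them, had 0.674 to 1.8 CPM in KPC KO and 0.106 to 0.415 in KPC WT, against 739 to 778 in ID8 KO and 607 to 636 in ID8 WT libraries. The list was mixed, since at an edgeR adjusted p of 0.05 or less 4 of its 6 markers were higher in KPC WT than in ID8 WT and 2 lower. Among all tested genes 46.5% were higher and 33.4% lower. Wt1 and Upk3b were the 2 lower markers. Upk3b averaged 0.282 CPM in KPC KO, 1.77 in KPC WT, 3690 in ID8 KO and 2300 in ID8 WT samples. Msln, a higher one, averaged 1270 CPM in KPC WT and 383 in ID8 WT samples. The higher markers include Krt8 and Krt18, which are also in the list of duct and simple epithelium. Krt8 averaged 3180 CPM in KPC KO and 1850 in KPC WT samples, and Krt18 averaged 1810 and 1280 CPM, so they weigh heavily in the KPC sums.

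**Figure D1:**
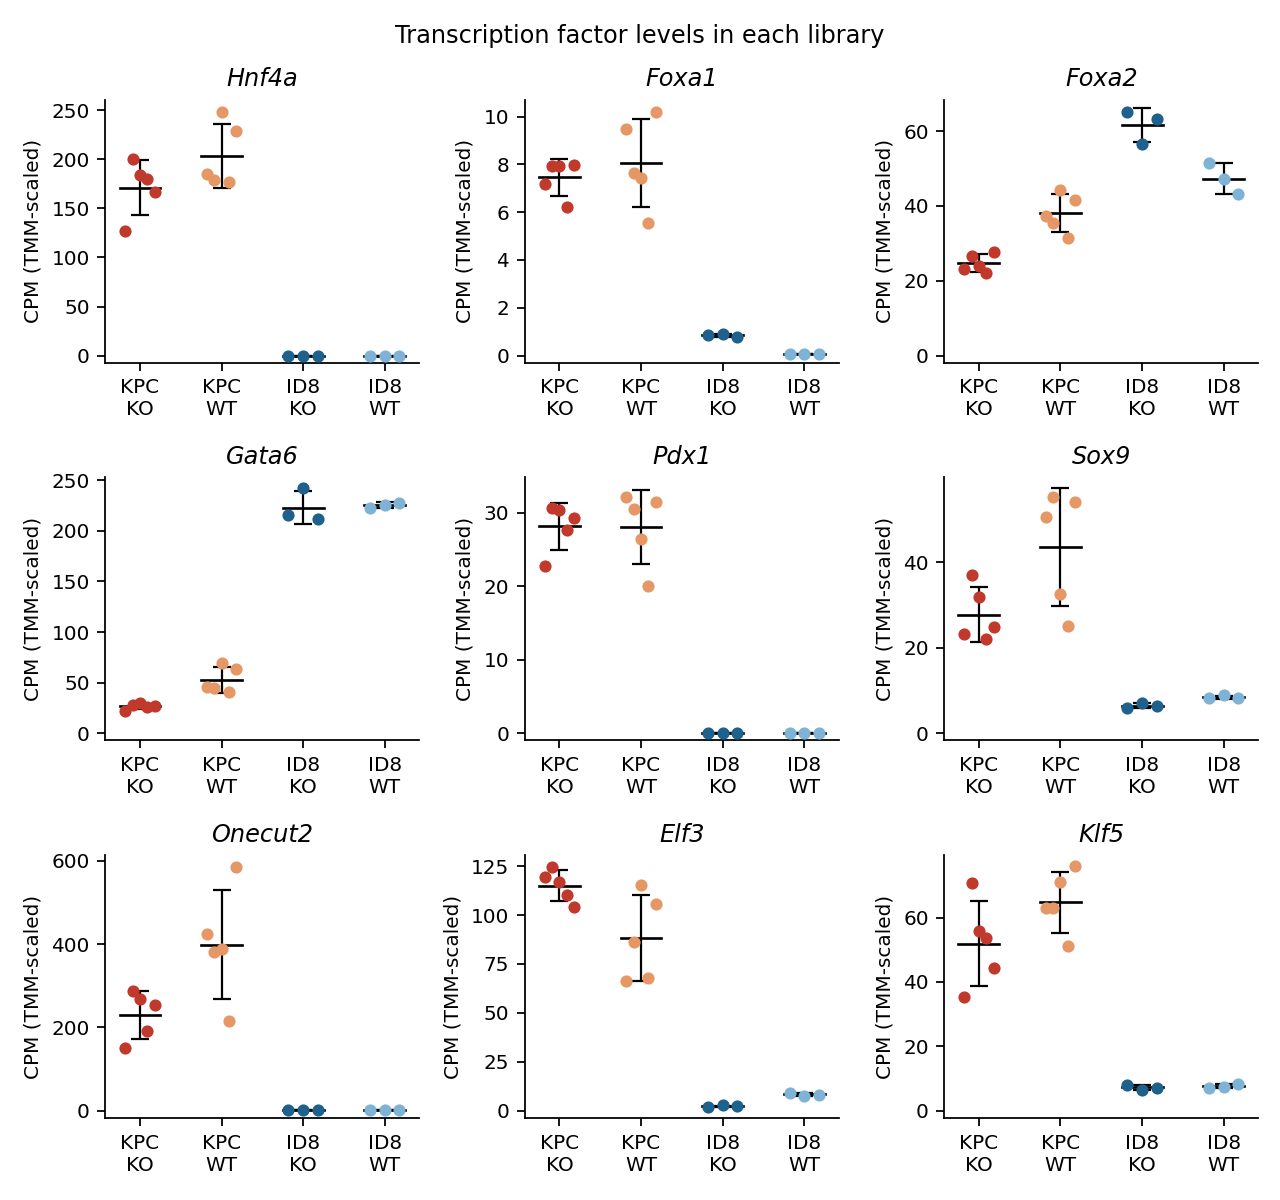
Level of each of the 9 transcription factors in CPM (vertical axes, linear, from 0) in each library of KPC KO and WT (5 each) and ID8 KO and WT (3 each); points are libraries, the long bar is the group mean and the error bar 1 SD. Hnf4a and Pdx1 sit at 0 in all 6 ID8 libraries. Gata6 is higher in ID8 than in KPC, and so is Foxa2 on average, though its WT libraries overlap between the lines.

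Between the lines, 7 of the 9 factors were higher in KPC than in ID8 and 2, Gata6 and Foxa2, were lower, in WT and in KO samples. For Foxa2 the difference in WT samples was small, the libraries overlapped and the call depended on the processing, as given below. The 2 that were lower are both among the factors of early endoderm, but so is Foxa1, which was higher in KPC. The 2 with no counts in ID8, Hnf4a and Pdx1, are well-known markers of the pancreas and gut. The comparison was fitted with edgeR over all 16 libraries, and a gene was called at a Benjamini-Hochberg adjusted p of 0.05 or less. Groups that did not overlap in CPM were found for 7 factors higher in KPC and 1 lower in WT samples, against 77.3% of genes (44.7% higher, 32.7% lower), and for 7 higher and 2 lower in KO samples, against 76.9% of genes (44.5% higher, 32.4% lower). These include Hnf4a and Pdx1, which passed the filter on low counts through KPC alone, so that their difference was built into their being tested. Of 14921 genes tested, 79.8% were called between the lines in WT samples, 46.5% higher in KPC and 33.4% lower, and 79.1% in KO samples, 45.9% higher and 33.1% lower. With a background of that size the count of called factors by itself says little, and the sizes carry the description. The median of all tested genes was 0.18 on the log2 scale in both comparisons, and 0.30 in WT samples when only library totals were used for scaling. The KPC libraries also contain host cells, so a level in KPC is a mean over tumour and host cells. In bulk RNA, fewer cells of a type and less RNA per cell cannot be told apart.

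Hnf4a, a nuclear receptor that governs liver, gut and pancreatic epithelial genes, had 127, 200.1, 184, 179.9 and 167 CPM in the KPC KO libraries. The KPC WT libraries had 186, 179, 248, 177 and 229 CPM. No count was seen in any ID8 library, which for counting error allows up to 0.158 CPM in KO and 0.162 CPM in WT libraries. Against that floor of 3 counts per library, Hnf4a was at least 1090-fold higher in KPC KO than in ID8 KO samples and at least 1260-fold higher in KPC WT than in ID8 WT samples. The RefSeq windows shown above for this gene belong to its 2 separate starts, which a count per gene does not distinguish.

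Pdx1, the homeodomain protein without which no pancreas forms, had the same mean of 28.1 CPM in both KPC genotypes. Its KPC KO libraries had 22.8, 30.6, 30.4, 27.7 and 29.2 CPM, and its KPC WT libraries had 32.1, 30.5, 26.4, 20.04 and 31.5 CPM. The coefficient of variation was 11.4% in KPC KO and 17.9% in KPC WT. All 6 ID8 libraries were at 0, so the level was at least 178-fold higher in KPC KO than in ID8 KO and at least 174-fold higher in KPC WT than in ID8 WT samples.

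Onecut2, a cut-homeodomain factor related to Onecut1, had 150.0, 287, 268, 190.3 and 254 CPM in KPC KO libraries. The KPC WT libraries had 424, 382, 388, 216 and 585 CPM, the widest spread of any of these factors in that group (coefficient of variation 33.0%). The ID8 KO libraries had 2.26, 2.05 and 1.63 CPM, and the ID8 WT libraries had 0.700, 0.864 and 0.650 CPM. The gene was thus near the floor in ID8 WT, with 41 counts over 3 libraries, and abundant in KPC. The log2 fold change of KPC over ID8 was 6.86 in KO samples (SE 0.376, edgeR adjusted p = 3e-10) and 9.07 in WT samples (SE 0.428, edgeR adjusted p = 6.28e-11).

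Sox9, which maintains progenitors and later marks the ducts, had 23.2, 37.0, 31.9, 22.04 and 24.9 CPM in KPC KO libraries, and 50.5, 55.3, 32.6, 25.2 and 54.2 CPM in KPC WT libraries. In ID8 it had 5.88, 7.10 and 6.38 CPM in KO and 8.30, 8.91 and 8.28 CPM in WT libraries. It was therefore present in both lines, with every KPC library above every ID8 library. KPC exceeded ID8 by a log2 fold change of 2.11 in KO samples (SE 0.262, edgeR adjusted p = 2.49e-06) and 2.36 in WT samples (SE 0.261, edgeR adjusted p = 7.4e-07).

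Elf3, an ETS factor of glandular epithelia, had 119.5, 125, 117, 110.3 and 104 CPM in KPC KO libraries, and 66.2, 86.2, 115, 67.7 and 106 CPM in KPC WT libraries. The ID8 KO libraries had 1.94, 2.68 and 2.21 CPM and the ID8 WT libraries 8.89, 7.72 and 8.28 CPM. Every KPC library lay above every ID8 library, and within ID8 the KO libraries were the lower ones. The log2 fold change of KPC over ID8 was 5.66 in KO samples (SE 0.222, edgeR adjusted p = 4.65e-12) and 3.41 in WT samples (SE 0.189, edgeR adjusted p = 2.38e-10).

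Klf5, a zinc finger protein of proliferating gut and duct epithelium, had 35.3, 70.6, 55.8, 53.6 and 44.5 CPM in KPC KO libraries and 62.9, 63.05, 71.0, 51.1 and 76.0 CPM in KPC WT libraries. It had 8.03, 6.52 and 7.12 CPM in ID8 KO and 7.11, 7.51 and 8.34 CPM in ID8 WT libraries. Every KPC library lay above every ID8 library. The log2 fold change of KPC over ID8 was 2.85 in KO samples (SE 0.205, edgeR adjusted p = 4.38e-09) and 3.08 in WT samples (SE 0.206, edgeR adjusted p = 2.09e-09).

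The forkhead pair behaved unlike each other. Foxa1 had 7.20, 7.94, 7.94, 6.23 and 7.97 CPM in KPC KO libraries and 9.46, 7.65, 7.41, 5.55 and 10.2 CPM in KPC WT libraries, which per length is the lowest level of the 9 factors in KPC. It had 0.839, 0.893 and 0.791 CPM in ID8 KO libraries and 1 count in each ID8 WT library. Its log2 fold change of KPC over ID8 was 3.14 in KO samples (SE 0.21, edgeR adjusted p = 1.66e-09). In WT samples 781 counts in KPC stood against 3 in ID8, a ratio of mean CPM of 149 with a 95% counting interval of 50.8 to 724.

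Foxa2 had 23.2, 26.7, 23.8, 22.2 and 27.8 CPM in KPC KO libraries and 37.4, 35.6, 44.4, 31.4 and 41.7 CPM in KPC WT libraries. In ID8 it had 65.2, 56.6 and 63.4 CPM in KO and 51.4, 47.2 and 43.3 CPM in WT libraries. In KO samples the lines did not overlap, and Foxa2 was lower in KPC by a log2 fold change of -1.32 (SE 0.106, edgeR adjusted p = 1.39e-08). In WT samples the lines overlapped, since KPC WT replicate 3 lay above the lowest ID8 WT library, and it was lower in KPC by a log2 difference of -0.31 (SE 0.107, edgeR adjusted p = 0.014). That call was lost when only library totals were used for scaling (-0.19, adjusted p = 0.142) and without ID8 WT replicate 1 (-0.25, adjusted p = 0.0769, both edgeR).

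Gata6 stood out in the other direction from the pancreatic factors. Its KPC KO libraries had 22.2, 27.5, 29.5, 25.8 and 26.5 CPM, and its KPC WT libraries had 45.6, 44.5, 68.8, 40.7 and 63.8 CPM. Its ID8 KO libraries had 216, 242 and 212 CPM, and its ID8 WT libraries had 222, 226 and 228 CPM. Every ID8 library was far above every KPC library. The log2 fold change of KPC over ID8 was -3.08 in KO samples (SE 0.148, edgeR adjusted p = 3.73e-11) and -2.10 in WT samples (SE 0.144, edgeR adjusted p = 2.66e-09). In an exact two-sided permutation test of 5 against 3 libraries, each of the 6 factors counted above the floor in every group (all but Hnf4a, Pdx1 and Foxa1) reached p = 0.0179 in KO samples, and each of them but Foxa2 (p = 0.0536) in WT samples. The value 0.0179 is the smallest p that design allows, unadjusted.

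Compared per length, as mean CPM per kilobase of exons in GENCODE M21, the factors ranked differently in each line. In KPC KO samples Elf3 led with 51.9, followed by Hnf4a with 35.5, Onecut2 with 14.2, Pdx1 with 13.0, Foxa2 with 10.4, Klf5 with 9.99, Sox9 with 6.72, Gata6 with 4.04 and Foxa1 with 2.24 CPM per kilobase. In KPC WT samples Hnf4a led with 42.2 and Elf3 came next with 39.8 CPM per kilobase, then Onecut2 with 24.6, Foxa2 with 16.1, Pdx1 with 13.0, Klf5 with 12.5, Sox9 with 10.5, Gata6 with 8.1 and Foxa1 with 2.42. Neighbours in these orders that lay closer than the larger of their replicate SDs were Onecut2 and Pdx1, and Foxa2 and Klf5, in KO samples. In WT samples they were Hnf4a and Elf3, Pdx1 and Klf5, Klf5 and Sox9, and Sox9 and Gata6. In ID8 the order was led by Gata6, with 34.3 in KO and 34.6 in WT, and Foxa2, with 26.0 in KO and 19.96 in WT, while no other factor exceeded 3.74 CPM per kilobase. Onecut2, abundant in CPM in KPC, has an exon length of 16234 bases, which lowers its place on this scale.

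Within KPC, Gata6 and Foxa2 were lower in KO than in WT samples, and none of the other 7 factors was called. Gata6 averaged 26.3 ± 2.67 CPM in KO samples and 52.7 ± 12.7 CPM in WT samples (SD, n = 5 each), and Foxa2 averaged 24.7 ± 2.4 CPM in KO samples and 38.1 ± 5.1 CPM in WT samples (SD, n = 5 each). Single KO libraries held 42.2% to 55.9% of the mean WT level of Gata6 and 58.3% to 73.0% of that of Foxa2. The log2 fold change of Gata6 was -1.02 (SE 0.159, edgeR adjusted p = 0.00441) and that of Foxa2 -0.64 (SE 0.111, edgeR adjusted p = 0.00725). In this comparison 13.7% of 14283 tested genes were called in either direction, 6.67% higher and 7.01% lower in KO samples, against 2 of 9 factors, both lower. For both genes every KO library lay below every WT library, which held in this direction for 6.04% of tested genes and in the other for 5.75%. An exact two-sided permutation test gave each p = 0.00794, the smallest that 5 against 5 libraries allow, unadjusted. The same test gave unadjusted p = 0.0317 for Onecut2, 0.0476 for Elf3 and 0.0556 for Sox9. It gave 0.111 or more for Klf5, Hnf4a, Foxa1 and Pdx1.

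Both calls were lost with a leukocyte transcript as a covariate, and that of Foxa2 was also lost without the libraries richest in skin keratins. Ptprc, a surface protein of all leukocytes, had 218, 103, 132, 220 and 135 CPM in KPC KO libraries and 49.9, 54.5, 90.0, 141 and 49.5 CPM in KPC WT libraries, and only WT replicate 4 reached into the KO range. The 6 leukocyte markers were all higher on average in KO samples, and 0 of 6 were called by edgeR, with 5 at an unadjusted p under 0.05, while DESeq2 called 4 and limma-voom 3. With log2 Ptprc as a covariate, edgeR gave Gata6 a log2 difference of -0.84 (adjusted p = 0.0853) and Foxa2 one of -0.44 (adjusted p = 0.137), and 0 of 9 factors and 343 genes were called. Skin keratinocyte markers summed to 4.46 to 74.1 CPM in KO and 8.3 to 606 CPM in WT libraries. Without the 3 libraries with Krt5 above 10 CPM (WT replicates 3 and 5 and KO replicate 1), edgeR gave Gata6 -0.68 (adjusted p = 0.0132) and Foxa2 -0.48 (adjusted p = 0.0833). Ptprc nearly separated the genotypes, and the fit without Krt5-rich libraries used fewer samples, so both fits were less able to call any gene. The main fit had called 1953 genes. A lost call therefore cannot be told apart from that lower ability, and the part of leukocytes or skin in these differences was not tested.

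**Figure D2:**
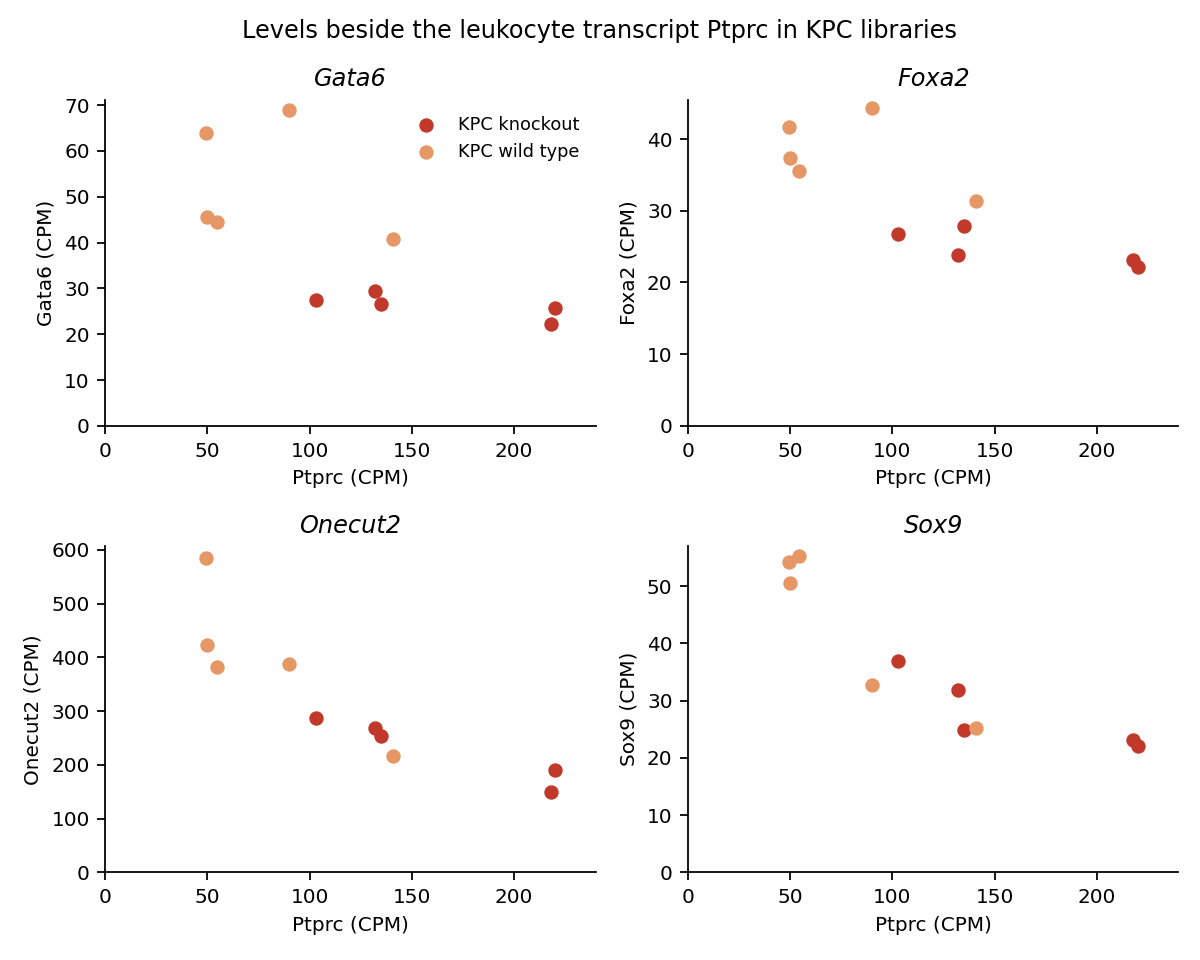
Levels of Gata6, Foxa2, Onecut2 and Sox9 in CPM (vertical axes) against the leukocyte transcript Ptprc in CPM (horizontal axes) in the 5 KPC KO and 5 KPC WT libraries, 1 point per library. For Onecut2 and Sox9 the WT library with 141 CPM of Ptprc lies among the KO libraries, and for Gata6 and Foxa2 it lies above them.

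Onecut2 and Sox9 were lower in most KO samples but overlapped with WT samples. Onecut2 averaged 230.0 ± 57.7 CPM in KO and 399 ± 132 CPM in WT samples (SD, n = 5 each), a log2 fold change of -0.82 (SE 0.262, edgeR adjusted p = 0.0627). Sox9 averaged 27.8 ± 6.41 CPM in KO and 43.6 ± 13.8 CPM in WT samples (SD, n = 5 each), a log2 fold change of -0.67 (SE 0.243, edgeR adjusted p = 0.0876). In both genes WT replicate 4 lay within the KO range, and in Sox9 WT replicate 3 did as well. Without WT replicate 4, edgeR called 4 factors, with Onecut2 at -0.98 (adjusted p = 0.0112) and Sox9 at -0.82 (adjusted p = 0.0176). Calls rose in general, to 3106 of 14356 genes, against 1953 of 14283 with all libraries. Onecut2 and Sox9 were also called by DESeq2 (adjusted p = 0.00894 and 0.0317), which called 3162 genes. With the Ptprc covariate their edgeR log2 differences were 0.04 and 0.20, neither called (adjusted p = 0.942 for Onecut2 and 0.463 for Sox9).

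Elf3 was the single factor of the 9 with a positive difference. It averaged 115 ± 8.01 CPM in KO and 88.3 ± 22.2 CPM in WT samples (SD, n = 5 each), with a log2 fold change of 0.36 (SE 0.157) that was not called (edgeR adjusted p = 0.143). The KO libraries were tightly grouped, with a coefficient of variation of 6.96% in KO against 25.1% in WT libraries, and WT replicates 3 and 5 lay within their range. Without the 3 Krt5-rich libraries, which include those 2, the log2 fold change was 0.63 (edgeR adjusted p = 0.0478).

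The remaining 4 factors were not called either, and KO and WT libraries overlapped for each. Hnf4a averaged 171 ± 27.7 CPM in KO and 204 ± 32.8 CPM in WT samples, a log2 fold change of -0.27 (SE 0.142, edgeR adjusted p = 0.21). Klf5 averaged 52.0 ± 13.2 CPM in KO and 64.8 ± 9.46 CPM in WT samples, a log2 fold change of -0.34 (SE 0.179, edgeR adjusted p = 0.212). The differences of Foxa1 and Pdx1 were smaller in size. Foxa1 averaged 7.45 ± 0.759 CPM in KO and 8.06 ± 1.83 CPM in WT samples, a log2 fold change of -0.13 (SE 0.171, edgeR adjusted p = 0.611). Pdx1 averaged 28.1 ± 3.2 CPM in KO and 28.1 ± 5.04 CPM in WT samples, a log2 fold change of -0.02 (SE 0.142, edgeR adjusted p = 0.931). Over the 9 factors 8 log2 fold changes were negative, with a median of -0.34 beside -0.01 over all tested genes.

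The same libraries were low for many factors at once. WT replicate 4 was the lowest WT library for 8 of the 9 factors, all but Elf3, and it had the most Ptprc of the WT libraries. KO replicate 1 was the lowest KO library for 5 factors and KO replicate 4 for 3, and these had the most Ptprc of all libraries. KO replicate 2, with the least Ptprc of the KO libraries, was the highest KO library for 6 factors. WT replicate 3 was the highest WT library for 4 factors, namely Gata6, Foxa2, Hnf4a and Elf3, and it had 182 CPM of Krt5 and 188 CPM of Krt10, both keratins of skin. Skeletal muscle markers, which summed to 5.68 to 5080 CPM in KO and 412 to 25300 CPM in WT libraries, also varied by sample. Without the 4 libraries with Acta1 above 1000 CPM, 2 of each genotype, edgeR called 4 factors, Gata6 at -1.21, Foxa2 at -0.84, Onecut2 at -1.20 and Sox9 at -0.84 (adjusted p = 0.0152, 0.0122, 0.0255 and 0.0487 in that order). The share of all genes called in that fit is not reported here, so the count of 4 cannot be set against a background.

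Levels relative to simple epithelial genes gave another picture, because those genes were higher in KO samples. The mean log2 CPM of Krt8, Krt18, Krt19 and Epcam was 10.56 ± 0.11 in KO and 9.65 ± 0.12 in WT samples (SD, n = 5 each), a difference of 0.91. Each factor's log2 ratio to these 4 genes was lower in KO than in WT samples, and each reached p = 0.00794 in the exact permutation test, the smallest it can give, unadjusted. The difference was -1.88 for Gata6, -1.67 for Onecut2, -1.53 for Foxa2, -1.52 for Sox9, -1.25 for Klf5, -1.16 for Hnf4a, -0.996 for Foxa1, -0.89 for Pdx1 and -0.49 for Elf3, whose direction was thus the opposite of that in CPM. All 9 ratios share a denominator that itself rose by 0.91 in KO samples (exact permutation p = 0.00794). They are thus not independent results. Pdx1, with nearly equal CPM in both genotypes (log2 fold change -0.02), also reached that p, so a low ratio does not show a lower factor level. The 4 genes were each called higher in KO samples, while Cdh1 was not called (0.16, edgeR adjusted p = 0.455) and Cftr was called lower.

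**Figure D3:**
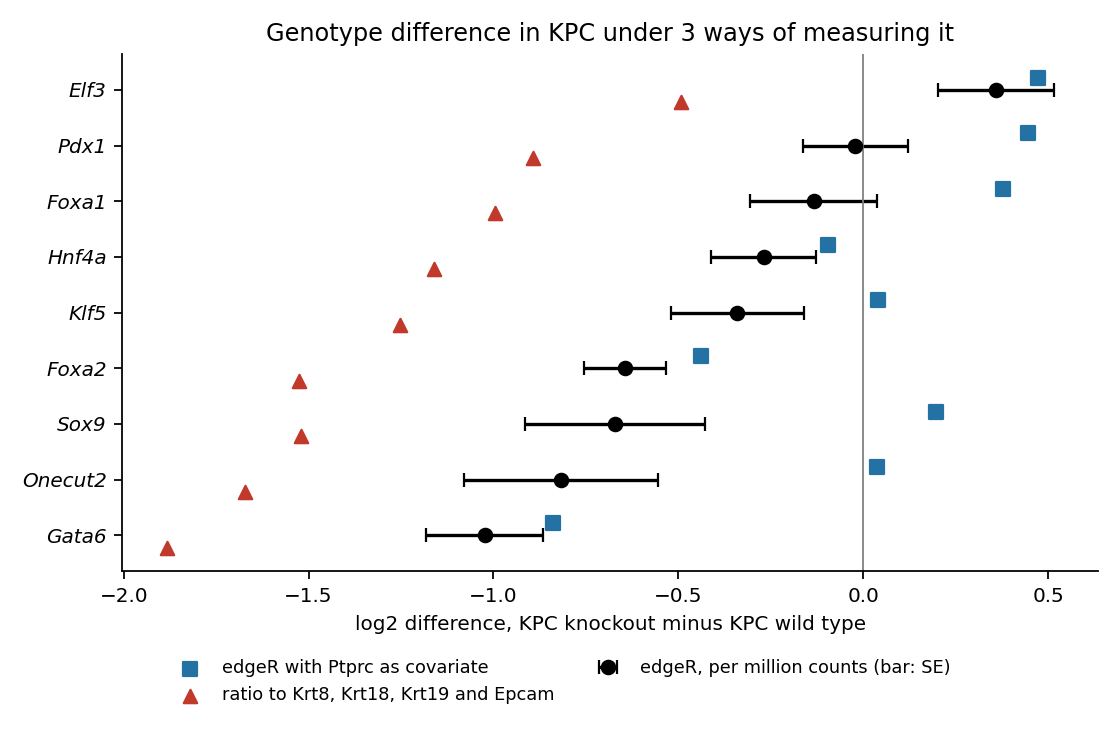
Log2 difference of KPC KO minus KPC WT (horizontal axis) for the 9 factors (rows) in the edgeR fit of counts (circles, bars are SE), in the fit with Ptprc as a covariate (squares) and as a ratio to Krt8, Krt18, Krt19 and Epcam (triangles); 5 libraries per genotype. Gata6 and Foxa2 are negative in each, while Elf3 lies at 0.36 in CPM and at -0.49 as a ratio.

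In ID8, where Hnf4a and Pdx1 were at 0 in both genotypes, 5 of the 7 factors tested were called between KO and WT samples, 3 higher and 2 lower. Among 11933 genes tested in ID8, 50.8% were called, 25.4% higher and 25.5% lower, and the replicates spread far less than in KPC (biological coefficient of variation 5.08%, against 25.1% in KPC), so 5 of 7 is near the background. When only library totals were used for scaling, 64.2% of called genes were higher in KO, against 49.9% with TMM. Elf3 fell in KO samples, to a mean of 2.28 ± 0.374 CPM against 8.30 ± 0.584 CPM in WT samples (SD, n = 3 each), a log2 fold change of -1.86 (SE 0.14, edgeR adjusted p = 1.52e-08). Sox9 fell less, to 6.45 ± 0.613 CPM in KO against 8.5 ± 0.358 CPM in WT samples (SD, n = 3 each), a log2 fold change of -0.39 (SE 0.108, edgeR adjusted p = 0.00596). In a joint fit of all 4 groups Sox9 was no longer called (adjusted p = 0.39).

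Onecut2 and Foxa2 rose in ID8 KO samples, opposite in sign to their KPC differences. Onecut2 averaged 1.98 ± 0.317 CPM in KO and 0.738 ± 0.112 CPM in WT samples (SD, n = 3 each), a log2 fold change of 1.42 (SE 0.245, edgeR adjusted p = 0.000148) at a low level. Foxa2 averaged 61.7 ± 4.5 CPM in KO and 47.3 ± 4.1 CPM in WT samples (SD, n = 3 each), a log2 fold change of 0.39 (SE 0.0695, edgeR adjusted p = 0.000214). Foxa1 was called as well (edgeR adjusted p = 1e-05), from 48 counts over the KO libraries and 3 over the WT libraries, a ratio of mean CPM of 15.6 with a 95% counting interval of 5.02 to 78.2. It passed the filter on low counts only through the KO libraries, so a difference was built into its being tested. For these 5 genes KO and WT libraries did not overlap, as for 57.9% of tested genes (28.7% higher, 29.3% lower), and the exact permutation test of 3 against 3 libraries cannot go below p = 0.1.

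Gata6 and Klf5 were not called in ID8. Gata6 averaged 223 ± 16.4 CPM in KO and 225 ± 2.76 CPM in WT samples (SD, n = 3 each), a log2 fold change of -0.01 (SE 0.0524, edgeR adjusted p = 0.891). Its sign turned with library totals alone (0.06) and without either of 2 KO libraries. Klf5 averaged 7.22 ± 0.76 CPM in KO and 7.65 ± 0.626 CPM in WT samples (SD, n = 3 each), a log2 fold change of -0.08 (SE 0.113, edgeR adjusted p = 0.586).

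The difference between the genotype effects of the lines was tested for the 6 factors counted above the floor in every group, and 4 were called, 1 higher and 3 lower in KPC than in ID8, where 21.8% of 14921 genes were called, 11.6% higher and 10.3% lower. The difference, KPC effect minus ID8 effect, was -0.99 for Gata6 (SE 0.209, edgeR adjusted p = 0.00371), -1.005 for Foxa2 (SE 0.153, edgeR adjusted p = 0.000354) and -2.21 for Onecut2 (SE 0.512, edgeR adjusted p = 0.00707). It was 2.24 for Elf3 (SE 0.265, edgeR adjusted p = 4.57e-05), which fell in ID8 KO samples and had a positive, uncalled difference in KPC. For Onecut2 the call was lost with limma-voom (-2.15, adjusted p = 0.208). Sox9 (-0.25, adjusted p = 0.691) and Klf5 (-0.23, adjusted p = 0.599) were not called in edgeR. With library totals alone, 34.4% of called genes had a higher effect in KPC, against 53.1% with TMM. The lines differ in host cell content, which the KPC effect includes and the ID8 effect does not, and these cannot be told apart from a difference between the tumour cells.

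**Figure D4:**
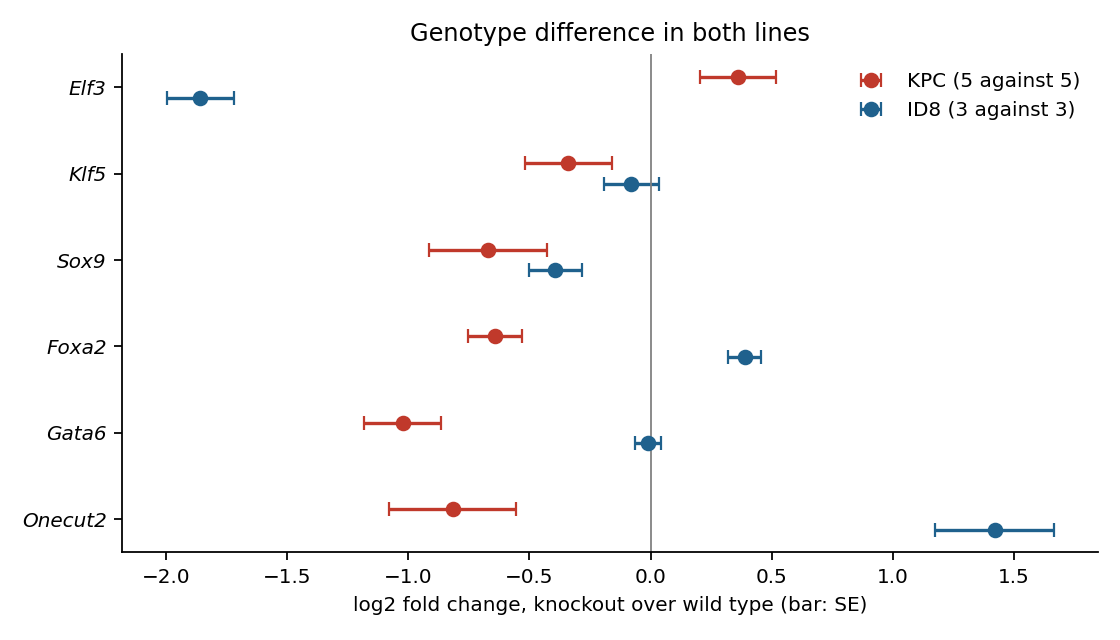
Log2 fold change of KO over WT (horizontal axis, bars are SE from edgeR) in KPC (5 against 5 libraries) and in ID8 (3 against 3) for the 6 factors (rows) above the count floor in every group. Gata6 lies at -1.02 in KPC and -0.01 in ID8, Foxa2 at -0.64 and 0.39, and Elf3 at 0.36 and -1.86.

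Other genes of the same programmes were read from lists. Of 25 other foregut, duct and epithelial transcription factors 24 were listed and 18 tested in KPC, where 1 was called higher and 2 lower in KO samples, with a median log2 fold change of -0.23 over the list and -0.01 over all tested genes. Of all tested genes 6.67% were called higher and 7.01% lower. With the Ptprc covariate 0 of the list were called lower, and likewise without the 3 Krt5-rich libraries, by edgeR. Both of these fits called far fewer genes in all. Hnf4g, a relative of Hnf4a, had 13.3 ± 3.01 CPM in KPC KO and 7.1 ± 0.869 CPM in KPC WT samples (log2 fold change 0.89, SE 0.17, edgeR adjusted p = 0.011). Sox17, an endoderm and biliary factor, had 28.6 ± 4.74 CPM in KPC KO and 42.1 ± 6.08 CPM in KPC WT samples (log2 fold change -0.58, SE 0.139, edgeR adjusted p = 0.0245). Tead1, a partner of Yap1, had 89.8 ± 19.4 CPM in KPC KO and 132 ± 8.88 CPM in KPC WT samples (log2 fold change -0.57, SE 0.14, edgeR adjusted p = 0.0257). These are means ± SD over 5 samples each.

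Of 15 acinar and endocrine transcription factors 12 were listed, 3 were tested in KPC and 0 were called by edgeR, with 1 at an unadjusted edgeR p under 0.05, and 0 were called by DESeq2 and by limma-voom. Mafa, a factor of mature beta cells, had 0.993 ± 0.827 CPM in KPC KO and 5.12 ± 7.94 CPM in KPC WT samples (SD, n = 5 each), where 1 library carried most of the counts.

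Of 15 duct and simple epithelial genes 12 were tested in KPC, with 6 called higher and 1 lower in KO samples and a median log2 fold change of 0.59. The shares over all tested genes were 6.67% higher and 7.01% lower. With the Ptprc covariate the counts in the list were also 6 higher and 1 lower. Among them Krt19, a duct keratin, had 2190 ± 137 CPM in KPC KO and 1050 ± 157 CPM in KPC WT samples (log2 fold change 1.04, SE 0.1, edgeR adjusted p = 0.000389). Krt8 had a log2 fold change of 0.76 (edgeR adjusted p = 0.00127) and Krt7 one of 0.71 (edgeR adjusted p = 0.00143). Cftr, the chloride channel of duct cells, went the other way, with 25.1 ± 4.45 CPM in KPC KO and 95 ± 23.1 CPM in KPC WT samples (log2 fold change -1.94, SE 0.191, edgeR adjusted p = 0.000389). Keratins of simple epithelia and Cftr, all duct genes, thus changed in opposite directions in the samples with lower Gata6 and Foxa2.

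Genes that mark the subtypes of human pancreatic cancer were called in both directions, beside 6.67% of all tested genes higher and 7.01% lower. Of 20 classical subtype genes 11 were tested in KPC, with 1 called higher and 1 lower in KO samples and a median of -0.15. Ctse, a gastric protease, had 149 ± 22.9 CPM in KPC KO and 396 ± 112 CPM in KPC WT samples (log2 fold change -1.43, SE 0.187, edgeR adjusted p = 0.0022), and Clrn3 had 5.74 ± 1.29 CPM in KPC KO and 1.71 ± 0.662 CPM in KPC WT samples (log2 fold change 1.72, SE 0.289, edgeR adjusted p = 0.00645). Of 19 basal-like subtype genes 12 were tested, with 1 called higher and 2 lower and a median of -0.89. Lemd1 had a log2 fold change of -3.77 (edgeR adjusted p = 0.00187) from 0.169 ± 0.105 CPM in KPC KO and 2.34 ± 1.22 CPM in KPC WT samples. Scel, an epithelial envelope protein, had a log2 fold change of -0.75 (edgeR adjusted p = 0.0315), and Dhrs9 one of 1.27 (edgeR adjusted p = 0.0236). Several basal-like genes are also made by skin, and keratinocyte markers were highest in WT replicate 3. Without the 3 Krt5-rich libraries edgeR called 0 higher and 1 lower of 11 tested, in a fit that called far fewer genes in all.

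Between the lines, most tested genes of 4 of the 5 lists were called higher in KPC WT than in ID8 WT samples, and the list of acinar and endocrine factors, with 2 of 5, was the exception. Of all tested genes 46.5% were called higher and 33.4% lower. In WT samples 15 of 18 tested foregut, duct and epithelial transcription factors were called higher in KPC and 2 lower, with a median log2 fold change of 6.23, or 5.31 with genes at 0 in ID8 set to their floor. Cdx2, a factor of the intestine, had 38.4 ± 4.75 CPM in KPC WT and 0 in all ID8 WT libraries, and Sox17 had 42.1 ± 6.08 CPM in KPC WT and 0 in all ID8 WT libraries. Of the duct and simple epithelial genes 13 of 14 were called higher in KPC WT and 1 lower, among them Krt7 (log2 fold change 5.73, edgeR adjusted p = 2.02e-14), Cdh1 (9.75, edgeR adjusted p = 1.22e-13) and Muc1 (7.34, edgeR adjusted p = 5.29e-12). Of the classical subtype genes 10 of 11 were called higher and 1 lower, with Lgals4 at 498 ± 90.8 CPM in KPC WT and 2.41 ± 0.338 CPM in ID8 WT, Cdh17 at 239 ± 40.8 CPM in KPC WT and 0 in ID8 WT, and Ctse at 396 ± 112 CPM in KPC WT and 0.0719 ± 0.0623 CPM in ID8 WT samples. Of the basal-like genes 8 of 13 were called higher and 1 lower, namely Slc2a1, with 97.8 ± 17.2 CPM in KPC WT and 323 ± 25.5 CPM in ID8 WT samples, while Tns4 had a log2 fold change of 3.95 (edgeR adjusted p = 2.5e-11) and Areg one of 2.78 (edgeR adjusted p = 1.01e-05). Of the acinar and endocrine factors 2 of 5 were called higher and 1 lower, with Insm1 at 0.321 ± 0.239 CPM in KPC WT and 0 in ID8 WT and Isl1 at 0.113 ± 0.136 CPM in KPC WT and 2.43 ± 0.466 CPM in ID8 WT samples.

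For each factor the 2 genes with the most similar profile over the 16 libraries were found among 13314 genes, as the smallest root mean square difference of centred log2(CPM + 0.5) values. Gata6 was closest to the agouti gene a (0.197) and Il22ra1 (0.232), both high in ID8, and Foxa2 was closest to Cystm1 (0.133) and Tmtc4 (0.151). Il22ra1 averaged 10.8 CPM in KPC KO, 21.6 in KPC WT, 83.6 in ID8 KO and 94.5 in ID8 WT samples. Hnf4a was closest to Wfdc2 (0.178) and Cldn18 (0.217), Pdx1 to Fgd4 (0.123) and Hook1 (0.167), and Onecut2 to Ptprg (0.441) and Slc4a4 (0.442), the poorest match of the 9. Cldn18, a tight junction protein of stomach and lung, averaged 178 CPM in KPC KO, 260 in KPC WT, 0.0701 in ID8 KO and 0.018 in ID8 WT samples. Sox9 was closest to Rasgef1b (0.218) and LOC115488130 (0.235), Elf3 to Rnf43 (0.273) and Epb41l4b (0.309), Klf5 to Dlgap1 (0.174) and Dock4 (0.189), and Foxa1 to Serpini1 (0.258) and Tspan13 (0.289). Most of each profile is the step between the lines, and the pseudocount of 0.5 CPM compresses levels near 0.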

How the data were processed

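Deposited were expected counts for each gene (RSEM output, not whole in 7.92% to 8.96% of values per table), which the authors obtained using HISAT with RSEM 1.2.8 (build GRCm39, also called mm39), going by the submitters' processing notes. The sources used here do not state whether counting used strand. The 9 factors' values were all whole, and the other expected counts were rounded. Genes without a row in a table were set to 0. No pair of replicates was as close as sampling noise allows (lowest chi-square per gene 4.36).

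Tests used edgeR 4.0.16 (R 4.3.3, limma 3.58.1) with TMM, filterByExpr and its robust quasi-likelihood test, with p-values adjusted by Benjamini-Hochberg over all genes tested, called at 0.05. Each line's genotype effect was fitted alone, and line differences and the difference of effects came from 1 fit of 16 libraries. The SE was approximated from the F statistic (absolute log2 change over root F). Exact two-sided permutation tests used log2(CPM + 0.5), with CPM scaled by TMM over all libraries. The fit was tested on simulated data, where it missed most of the smallest changes made in KPC and gave a share of false calls in ID8 above the threshold, so a factor that was not called is not shown to be unchanged. Intervals and floors cover counting error only.

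The 9 factors, 5 gene lists and 12 marker lists were chosen with earlier results of these data known. Named list genes are those called with the smallest adjusted p in the KPC genotype comparison (at most 4 per list, or the 2 highest where none was called) and between lines in WT (at most 3). Il22ra1 and Cldn18, among the similar profiles, are shown as examples chosen after their values were seen, as are Wt1, Upk3b, Msln, Ptprc and the keratins of skin. Alternatives were median-of-ratios factors, library totals, no filter, a filter at 1 CPM, DESeq2 1.42.0, limma-voom, a replicate block, joint or separate fits, leaving out each library or those with Acta1 above 1000 CPM, a Ptprc covariate and a ratio to epithelial genes. Leaving out libraries with Krt5 above 10 CPM was added after the data were seen. Gata6 and Onecut2 promoters were left out of the search and are not shown, and Sox9 and Klf5 promoters were not analysed here. No coordinates of GRCm39 were used, exon lengths come from GENCODE M21 (GRCm38), and figures were drawn with matplotlib 3.10.9. Values of a few genes in the lists are not reported here.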

Additional observations from a re-analysis of the deposited data

Results flagged for a closer look

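In KPC WT samples Mafa, a factor of mature beta cells, had 19.3 CPM in replicate 2, against 0.687 to 2.54 CPM in the other 4 WT libraries, a gap of 0.9 of the group's whole range. It was 1 of 50 groups examined for a sample far from the others, and chance flags about 1 in 20 groups. The same library had the most Acta1, a skeletal muscle actin, of all libraries, at 7290 CPM, and islet hormone genes were at 0 in it. The part of muscle in the Mafa level was not tested.

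The genotype effect differed between the lines for 4 factors by the test of the difference itself (KPC effect minus ID8 effect, edgeR). It was -0.99 for Gata6 (adjusted p = 0.00371), -1.0 for Foxa2 (adjusted p = 0.000354), -2.21 for Onecut2 (adjusted p = 0.00707) and 2.24 for Elf3 (adjusted p = 4.57e-05). Across leaving out each of the 16 libraries in turn, the difference ran between -1.07 and -0.87 for Gata6, -1.07 and -0.94 for Foxa2, -2.37 and -2.03 for Onecut2 and 2.13 and 2.38 for Elf3, and each stayed called. Host cell transcripts differ between the lines, and their part in these differences was not tested.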

How the results depend on the processing

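The KPC genotype comparison depended most on the processing. It called 1953 genes and 2 factors, but 3162 genes and 4 factors with DESeq2, 3524 genes and 4 factors in a joint fit of the 4 groups, 343 genes and 0 factors with the Ptprc covariate (4 at an unadjusted p under 0.05), 315 genes without Krt5-rich libraries (added after the data were seen) and 4 factors without Acta1-rich libraries. The count of all genes called without Acta1-rich libraries is not reported here. Leaving out 1 library gave 934 to 3106 genes and 2 to 4 factors, and the gene count moved by over 1.5 times without any library but KO replicate 2. Gata6 (-1.11 to -0.91) and Foxa2 (-0.71 to -0.58) stayed called without any 1 library. In ID8 the joint fit called 2681 genes, against 6067. For factors not called, signs turned as follows. Pdx1 in KPC was 0.000412 with the filter at 1 CPM, 0.00144 in the joint fit, 0.45 with the Ptprc covariate, 0.085 without Krt5-rich libraries and -0.129 to 0.068 without 1 library. Hnf4a was 0.01 without Krt5-rich libraries, and with the Ptprc covariate Sox9 was 0.20, Onecut2 0.036, Klf5 0.04 and Foxa1 0.38. Elf3 was -0.49 as a ratio to epithelial genes. Gata6 in ID8 was 0.064 with library totals and -0.072 to 0.027 without 1 library. The cause of these shifts was not tested. No factor's call changed with the replicate block, which gave 1665 genes and 2 factors in KPC and 5852 genes and 5 factors in ID8. Deviations of samples with the same number had correlations of -0.556 to 0.58 in KPC and -0.125 to 0.187 in ID8. In each line KO sample 2 matched WT sample 2 best, and no other KO sample matched its own number best. No reference was computed for these correlations, so they cannot show whether the numbers mark a shared animal or batch. Depth limits statements on Hnf4a, Pdx1 and Foxa1 in ID8 only.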

Other observations

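Gata4, the relative of Gata6 that acts beside it in the early pancreas, was singled out after its values were seen. It had 29.6 ± 5.51 CPM in KPC KO and 41.3 ± 8.37 CPM in KPC WT samples (SD, n = 5 each), and 261 ± 6.59 CPM in ID8 KO and 277 ± 4.03 CPM in ID8 WT samples (SD, n = 3 each). The log2 fold change of KPC WT over ID8 WT was -2.75 (SE 0.155, edgeR adjusted p = 2.89e-10), and that of KPC KO over KPC WT was -0.50 and not called (SE 0.173, edgeR adjusted p = 0.0745). Both GATA factors were thus higher in the ovarian line.

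Some regulators and other genes of epithelia were nearly absent from KPC although Cdh1 averaged 814 ± 138 CPM in KPC KO and 719 ± 118 CPM in KPC WT samples (SD, n = 5 each). They were also singled out after their values were seen. Grhl2 averaged 0.127 ± 0.136 CPM in KPC KO and 0.485 ± 0.8 CPM in KPC WT samples, and Ovol2 averaged 0.0526 ± 0.053 CPM in KPC KO and 0.0512 ± 0.0718 CPM in KPC WT samples. The splicing factor Esrp1 averaged 0.292 ± 0.478 CPM in KPC KO and 1.57 ± 2.31 CPM in KPC WT samples, while its relative Esrp2 averaged 37.0 ± 5.2 CPM in KPC KO and 42.3 ± 9.3 CPM in KPC WT samples. Rab25 averaged 0.403 ± 0.154 CPM in KPC KO and 0.54 ± 0.671 CPM in KPC WT samples. The ETS factor Ehf, by contrast, averaged 109 ± 21.1 CPM in KPC KO and 136 ± 42.5 CPM in KPC WT samples and was at 0 in every ID8 library.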
